A study of Mus musculus with 95 samples.

Results

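The 150 probes described here were, in control mouse thymus, higher in epithelium than in T cells in cortex and medulla alike. They were chosen among the 20175 probe IDs of a whole-transcriptome panel from control tissue alone and then read in thymoma. For the choice, counts were pooled over all control segments of a class and put on the scale log2(CPM+1), where CPM is the count of a probe scaled to equal library totals. A probe had to span at least 0.5 over the 5 control classes, to differ by less than 0.5 between medullary and cortical epithelium, and to lie lower in B cells than in either epithelium. Of 1159 probes past these filters, 540 were higher in epithelium than in T cells in both zones, and the 150 with the largest value of the smaller of these 2 differences, called the score here, are the members.

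Thymus was profiled with the GeoMx Digital Spatial Profiler, which counts hybridised probes within small segments of a fixed tissue section. Masks for pan-cytokeratin, CD3 and B220 outlined segments of epithelium, T cells and B cells. Thymoma mice 1042, 1044, 1082 and 1157 were Gtf2ifl/wt Foxn1-Cre/wt, the Gtf2i L424H knock-in genotype, and gave 13 epithelial, 12 T cell and 12 B cell segments. Control mice 1057 and 1059 were Gtf2ifl/fl, and control mice 1172 and 1143 were Gtf2ifl/wt, all without Cre. The controls gave 13 segments of cortical epithelium, 11 of medullary epithelium, 13 of cortical T cells, 11 of medullary T cells and 10 of B cells, with no medullary segment from mouse 1059. All 8 mice thus carried a floxed Gtf2i allele, and Cre expressed from Foxn1 acts in thymic epithelium. Each of the 4 slides held 2 mice of 1 genotype, so slide and group cannot be told apart. Animal ages were not given in the sources used here.

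Thymic epithelium is the keratin-positive scaffold on which T cells develop, and its formation and upkeep depend on the transcription factor Foxn1. Cortical epithelial cells present self-peptides to immature T cells during positive selection. Medullary epithelial cells display antigens of many other tissues, partly under the regulator Aire, and so help to remove self-reactive T cells. Probes shared by both zones therefore concern what cortical and medullary epithelium have in common, whatever the genes behind them. The deposited files name probes by panel ID only, and no table used here pairs these IDs with genes, so the members have no gene name, function or sequence in what follows. For the same reason the targeted gene and the marker genes of the 3 masks could not be looked at.

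The mouse was the unit of replication: segments of a mouse and class were summed into 30 libraries. These held 63805 to 36879809 counts. Mouse 1143 stood apart in depth: its classes yielded 45.4 to 77.4 counts for each nucleus, and those of the remaining 7 mice 544 to 3160. The pooled counts behind the choice came mostly from mouse 1057, which supplied 70.0% of the cortical and 66.4% of the medullary epithelial counts, whereas mouse 1143 supplied 0.85% and 3.68%. No segments held identical counts.

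In the control pools the members had a median level of 5.53 in cortical epithelium and 5.68 in medullary epithelium on the log2(CPM+1) scale, against 5.06 in cortical T cells, 5.20 in medullary T cells and 4.91 in B cells. These values made the choice and are given as description. The difference of epithelium from T cells was 0.26 to 1.97 in cortex (median 0.41) and 0.26 to 1.44 in medulla (median 0.42), so most members differed by modest amounts. Medullary epithelium was the higher of both epithelia for 114 members. The median over all probes was higher there too, at 5.12 against 5.00 in cortical epithelium. The last member had a score of 0.2557 and the next probe one of 0.2555, so the boundary of the list is not a gap in the data. When the list was chosen again without one control mouse, it shared 54 probes with the 150 without mouse 1057, 96 without mouse 1172, 119 without mouse 1059 and 136 without mouse 1143.

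Read in single control mice, the same difference was not equally clear. Cortical epithelium was above cortical T cells for all 150 members in mouse 1057, for 142 in mouse 1059, for 137 in mouse 1172 and for 89 in mouse 1143. In medulla the counts were 150 in mouse 1057, 131 in mouse 1172 and 98 in mouse 1143. To read a mouse that had no part in the choice, lists of 150 were also chosen without it. Such lists were higher in cortical epithelium than in cortical T cells for 129 probes in mouse 1057, 138 in mouse 1059, 119 in mouse 1172 and 81 in mouse 1143, with median differences of 0.27, 0.42, 0.25 and 0.07. In medulla they were higher for 129 probes in mouse 1057, 126 in mouse 1172 and 95 in mouse 1143, with median differences of 0.38, 0.26 and 0.27. Over all probes, 39.9 to 51.4% were higher in epithelium. The shallow mouse 1143 had the fewest such probes in both zones; its median difference was the smallest in cortex but not in medulla.

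Thymoma epithelium kept the members high relative to thymoma T cells of the same animals. Of the 150 probes, 135 were higher and 0 were lower in thymoma epithelium than in thymoma T cells at an adjusted p below 0.05 (edgeR quasi-likelihood test with the mouse as a block, Benjamini-Hochberg adjustment over all probes). Over all probes 14.2% were called higher and 11% lower. No thymoma library entered the choice of the members. Their median log2 fold change was 0.66, with a range of -0.10 to 1.58, against a median of -0.03 over all probes. Of the 135, 24 had a log2 fold change above 1, 77 lay between 0.5 and 1, and 34 lay below 0.5. At an unadjusted p below 0.05, 144 members were higher and 0 lower. DESeq2 called 115 higher and 0 lower at an adjusted p below 0.05. The shares of all probes at the unadjusted threshold and with DESeq2 were not counted. With members chosen from the unweighted mean over control mice, in which each mouse counts alike, 97 were called higher and the median was 0.36.

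The calls rest on comparing classes within each animal. In a fit without the mouse block, 2 members were called higher, while the median log2 fold change was again 0.66. The share of all probes called in that fit was not counted. The range of a member over the 4 thymoma epithelia had a median of 0.65 on the log2 scale, whereas the SD over mice of its difference from T cells had a median of 0.20. Epithelium and T cells of 1 mouse tended to be high or low together.

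Within animals the direction was the same almost throughout. The median member was higher in epithelium than in T cells by 0.63 in mouse 1042, 0.46 in mouse 1044, 0.65 in mouse 1082 and 0.78 in mouse 1157 on the log2(CPM+1) scale, while the median over all probes lay between -0.09 and 0.00. Epithelium was higher for 146 members in mouse 1042, 139 in mouse 1044, 147 in mouse 1082 and 146 in mouse 1157. It was higher in all 4 mice for 133 members, where 16.4% of all probes were. A further 14 members were higher in 3 of 4 mice, 2 in 2 mice and 1 in none. Both masks were placed on the same tissue in 12 thymoma regions, and in these 131 to 146 members were higher in epithelium, with median differences of 0.42 to 0.81. No region went the other way.

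**Figure D1:**
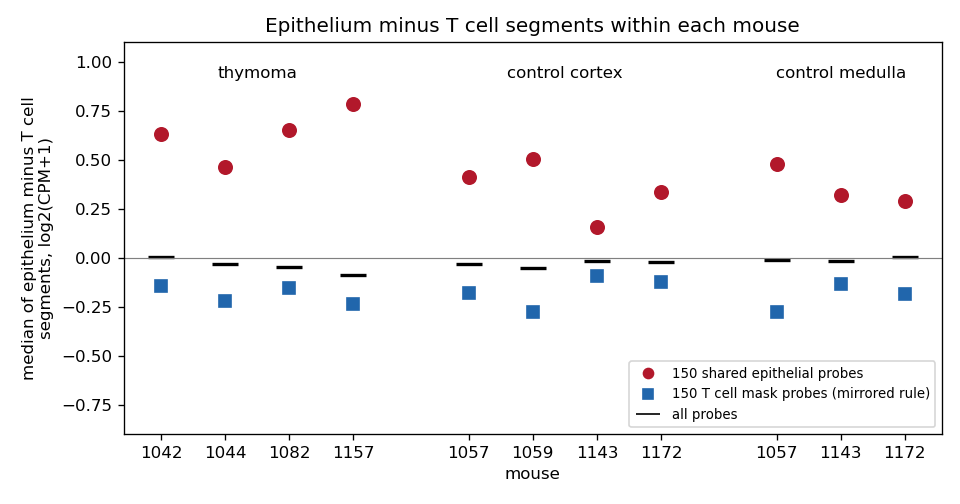
Median difference of epithelium minus T cell segments, on the log2(CPM+1) scale, in each mouse with both classes, for the 150 members (circles), for 150 probes chosen by the mirrored rule (squares) and for all probes (bars). The members lie between 0.46 and 0.78 in the 4 thymoma mice. The control values chose the members and are lowest in cortex of mouse 1143, at 0.16.

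A mirrored list served for comparison: 150 probes chosen by the same rule with the roles of epithelium and T cells exchanged. In thymoma epithelium against thymoma T cells it had 0 probes called higher and 61 called lower, and its median log2 fold change was -0.14. The members lay farther from the median of all probes than the mirrored probes did, at 0.66 against -0.14. They already did so in control thymus. In cortex the medians of members and mirrored probes were 0.41 and -0.18 in mouse 1057 and 0.50 and -0.28 in mouse 1059. They were 0.33 and -0.13 in mouse 1172 and 0.16 and -0.09 in mouse 1143. In medulla they were 0.48 and -0.28 in mouse 1057, 0.29 and -0.18 in mouse 1172 and 0.32 and -0.13 in mouse 1143. The median of each list had the same sign in thymoma as in the control tissue that chose it.

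Probes that differed more in control thymus also differed more in thymoma. Of the 50 members with the highest scores, 49 were called higher in thymoma epithelium than in thymoma T cells, and their median log2 fold change was 0.93. Among the next 50 there were 47 called, with a median of 0.66, and among the last 50 there were 39, with a median of 0.45. The 390 probes with a positive score that ranked after the members had 200 called higher and a median of 0.24, and the 619 that passed the filters without a positive score had 49 called higher, 137 called lower and a median of -0.07. Across the 150 members, the score and the thymoma difference had a Pearson r of 0.60 and a Spearman rho of 0.52. This is a description across probes, which share libraries and are not independent replicates.

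**Figure D2:**
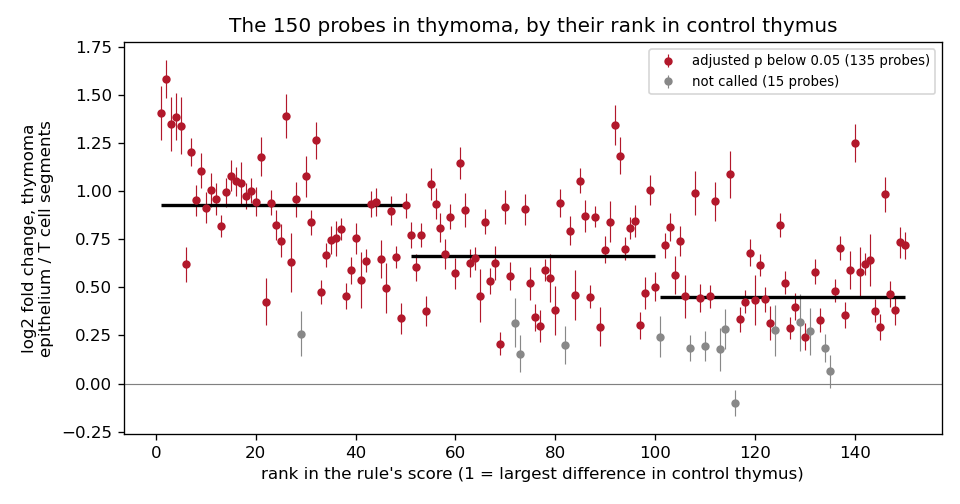
Log2 fold change of thymoma epithelium over thymoma T cells for each of the 150 members, with its standard error, against rank in the score (1 is the largest difference in control thymus); colour marks members called and not called. The fold changes decline with rank: the first 50 ranks have a median of 0.93 and the last 50 one of 0.45.

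The members were also prominent among all probes. Although they make up 0.743% of the panel, they supplied 12 of the 50 probes with the largest log2 fold change of thymoma epithelium over thymoma T cells, 22 of the first 100 and 115 of the first 1000. Members abundant in the thymoma libraries differed most. The 50 members with the highest level had a median log2 fold change of 0.92 and 46 calls. The middle 50 had 0.75 and 50 calls, and the 50 lowest had 0.46 and 39 calls. The same libraries gave level and fold change, so they are not independent. The 15 members that did not pass the test had log2 fold changes of -0.10 to 0.32, a median score rank of 113, and adjusted p values of 0.0517 to 0.624 in the same edgeR fit. Of these 15, 3 were higher in epithelium in all 4 mice.

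Thymoma epithelium was also above thymoma B cells for most members. In thymoma epithelium against thymoma B cells, 125 members were called higher and 1 lower, where 18.1% of all probes were called higher and 11.3% lower (edgeR quasi-likelihood test, mouse as a block). The median log2 fold change was 1.16 and the range -0.35 to 5.46. The median was 0.57 when mouse 1057 had no part in the choice of members, and 0.40 with members chosen from the unweighted mean over control mice. Epithelium was above B cells in all 4 mice for 121 members, where 17.3% of all probes were. The B cell segments came from other regions of the tissue than the epithelial and T cell segments, so region and cell class cannot be told apart in this comparison.

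Thymoma B cells in turn had less of the members than thymoma T cells. Here too the B cell segments came from other regions, so region and cell class cannot be told apart. Of the 150, 85 were called lower and 0 higher in thymoma B cells against thymoma T cells, where 12.8% of all probes were called lower and 7.2% higher, and at an unadjusted p below 0.05 the counts were 96 lower and 3 higher. DESeq2 called 0 higher as well. For the unadjusted threshold and DESeq2, the shares of all probes were not counted. The median log2 fold change was -0.51, and the range was -4.04 to 0.35. The median was -0.18 when mouse 1057 had no part in the choice of members and -0.31 when mouse 1172 had none. With members chosen from the unweighted mean over control mice it was -0.039, with 45 called lower and 6 higher. B cells were below T cells in all 4 mice for 83 members, where 15.2% of all probes were. By mean level over mice, 112 members had the order epithelium, T cells, B cells from high to low, an order held by 12.3% of all probes. The order epithelium, B cells, T cells was held by 33 members and 7.5% of all probes. No member was highest in T cells. Of all probes, 11.5% had the order T cells, epithelium, B cells and 5.54% the order T cells, B cells, epithelium. The rule had asked for low B cells in control thymus, though not for B cells below T cells: in the control pools B cells lay below cortical T cells for 73 members and below medullary T cells for 114. The median over all probes in these pools was 5.02 in B cells, 5.04 in cortical T cells and 5.14 in medullary T cells.

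Summed over the members, the same order held in each thymoma. The 150 probes took 2.94% of all counts in epithelium of mouse 1042, 1.98% in mouse 1044, 1.98% in mouse 1082 and 2.32% in mouse 1157. In thymoma T cells of the same mice they took 1.97%, 1.37%, 1.06% and 1.30%, and in thymoma B cells 1.16%, 0.909%, 0.922% and 0.921%. Epithelium was above T cells and T cells were above B cells in every mouse. The means were 2.31% ± 0.455 in thymoma epithelium, 1.43% ± 0.385 in thymoma T cells and 0.978% ± 0.121 in thymoma B cells (SD, n = 4 each). The most abundant member accounted for 0.202 to 0.334% of counts in thymoma epithelium, and the other 149 for 1.75 to 2.61%, so the sum did not depend on a single probe. In a segment, fewer cells of a type and less RNA per cell cannot be told apart.

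In control thymus the shares in epithelium and T cells were lower. They averaged 1.08% ± 0.146 in cortical epithelium (SD, n = 4), 1.05% ± 0.308 in medullary epithelium (SD, n = 3), 0.809% ± 0.0607 in cortical T cells (n = 4), 0.791% ± 0.161 in medullary T cells (n = 3) and 0.92% ± 0.22 in B cells (n = 4). All 4 thymoma epithelia lay above all control epithelia, the lowest thymoma value being 1.98% and the highest control value 1.40%. Thymoma T cells, at 1.06 to 1.97%, lay above control T cells, at 0.677 to 0.975%. Thymoma B cells, at 0.909 to 1.16%, overlapped control B cells, at 0.758 to 1.24%. The control libraries had chosen the members, so these shares are given without a test.

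**Figure D3:**
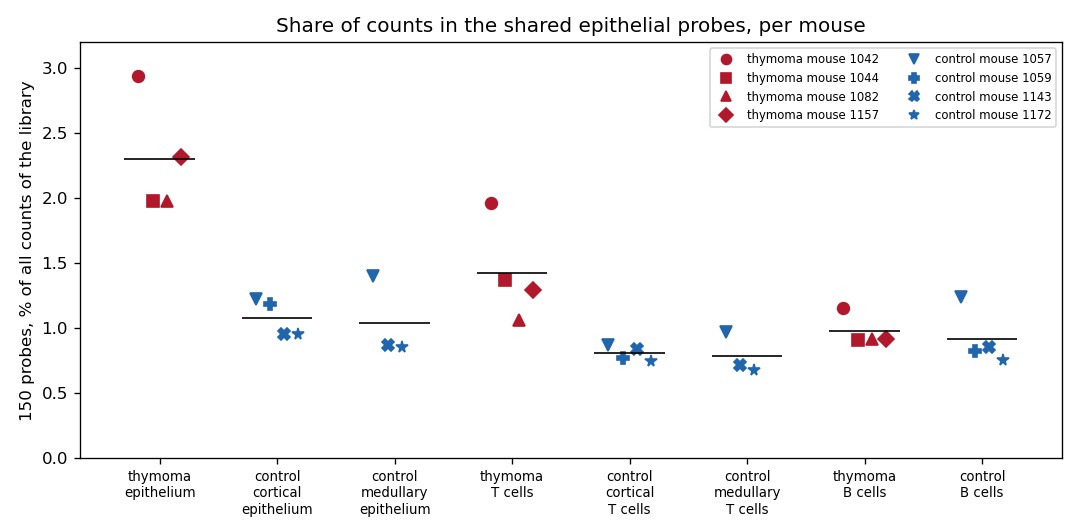
Percentage of all counts taken by the 150 members in each library, 1 point per mouse, for the 3 thymoma and the 5 control classes. The thymoma epithelia lie at 1.98 to 2.94% and the control epithelia at 0.861 to 1.40%, and mouse 1042 is the highest in all 3 thymoma classes.

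The thymomas were not alike. Mouse 1042 had the highest level of a member among the 4 thymoma epithelia for 95 members, where 15.5% of all probes were highest in that mouse. It was also the highest for 89 members in thymoma T cells, where 14.2% of all probes were, and for 84 in thymoma B cells, where 26.1% were. The high level of mouse 1042 was therefore seen under all 3 masks, while its median difference of epithelium from T cells, 0.63, lay within the range of the other mice. Mouse 1082 had the lowest epithelial level for 67 members, and the share of all probes lowest in that mouse was not counted. Single segments of thymoma epithelium varied from 1.76 to 3.17% of counts in members (13 segments, median 2.05%), those of thymoma T cells from 1.05 to 2.04% (12 segments, median 1.40%) and those of thymoma B cells from 0.828 to 1.30% (12 segments, median 0.945%). All 4 epithelial segments of mouse 1042, at 2.79 to 3.17%, lay above all segments of the other 3 mice, the highest of which was 2.71%.

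Thymoma epithelium against control epithelium is given as a description, since high control epithelium was a condition of choice and works toward lower values in this contrast. The counts below are set beside those of all probes and support nothing on their own. In the edgeR fit, 66 members were called higher and 1 lower in thymoma epithelium than in control cortical epithelium, where 2.4% of all probes were called higher and 1.03% lower. The median log2 fold change was 0.82, and 145 of the 150 were above 0. All 4 thymoma epithelia lay above all 4 control cortical epithelia for 85 members, where 5.1% of all probes did so, and below them for 0 members, where 11.1% did. Against control medullary epithelium, 52 members were called higher and 1 lower, where 7.28% of all probes were called higher and 2.81% lower. The median was 0.80, and 139 were above 0. The thymoma and control groups did not overlap, with thymoma above, for 61 members, where 9.95% of all probes did so, and with thymoma below for 5, where 32.8% did.

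These calls varied with single animals, and the sign of the median did not. Against cortical epithelium 33 members were called higher without mouse 1042, where 0.719% of all probes were, and 37 without mouse 1157, where 0.892% were. There were 17 without mouse 1057, where 0.287% of all probes were called higher, 19 without mouse 1059, where 0.456% were, and 7 without mouse 1172, where 0.203% were. The medians all stayed above 0. Against medullary epithelium 11 members were called higher without mouse 1042, where 1.05% of all probes were, 29 without mouse 1044, where 3.86% were, and 25 without mouse 1082, where 2.85% were. There were 5 without mouse 1157, where 0.54% of all probes were called higher, and 0 without mouse 1172, where 0.0248% were. In that last edgeR fit, 67 members were higher and 2 lower at an unadjusted p below 0.05, where 11.1% of all probes were higher and 8.22% lower. With Gtf2ifl/wt controls alone, 0 members were called against cortical epithelium, and 1 of all probes was. At an unadjusted p below 0.05, 93 members were then higher and 1 lower, where 9.91% of all probes were higher and 7.81% lower. Mouse by mouse, the median member exceeded the mean of control cortical epithelium by 1.06 in mouse 1042, 0.75 in mouse 1044, 0.58 in mouse 1082 and 0.76 in mouse 1157 on the log2(CPM+1) scale. Without the shallow mouse 1143, the median of thymoma minus control cortical epithelium was 0.66, against 0.77 with it.

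**Figure D4:**
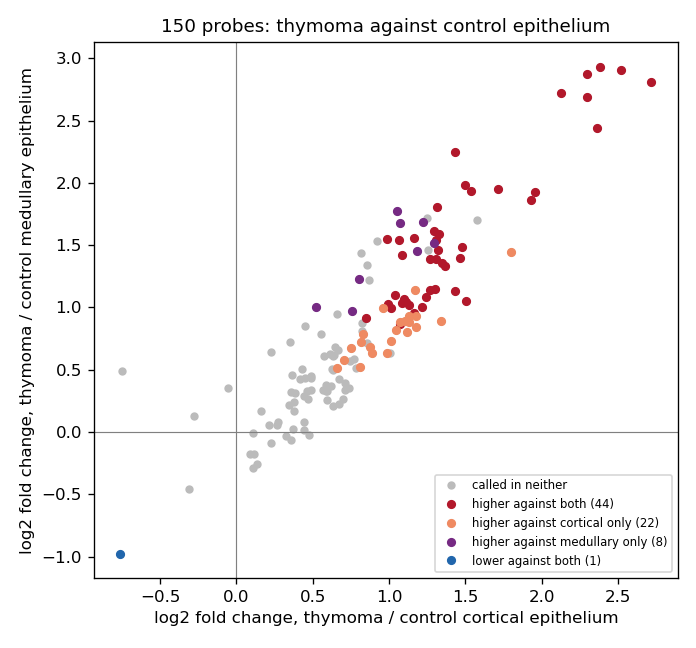
Log2 fold change of thymoma epithelium over control cortical epithelium (x axis) and over control medullary epithelium (y axis) for each of the 150 members, coloured by the comparisons in which the member was called higher. Most points lie above 0 on both axes, 44 were called in both comparisons, and a few lie above 2 on both.

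The 2 comparisons share the thymoma libraries, and 44 members were called higher in both, 22 against cortical epithelium alone, 8 against medullary epithelium alone and 76 in neither. Over all probes, 1.06% were called higher in both, 1.34% against cortical epithelium alone, 6.23% against medullary epithelium alone and 91.4% in neither. A gap of more than 2 log2 units against both control epithelia was seen for 7 members, a limit set after the values were seen. Their log2 fold changes were 2.13 to 2.72 against cortical and 2.44 to 2.93 against medullary epithelium. High thymoma epithelium picked these 7, which works toward wide gaps over T cells and B cells and high shares in thymoma epithelium. How many of all probes pass this limit was not counted. The 7 members were higher than T cells too, by 0.96 to 1.41 in thymoma, where the median of the other 143 was 0.64. They were higher than B cells by 1.39 to 5.46. All 7 were highest in mouse 1042 among the thymoma epithelia. Together they took 0.400 to 0.770% of all counts in thymoma epithelium, 0.145 to 0.412% in thymoma T cells and 0.0761 to 0.134% in thymoma B cells. In control epithelium they took 0.0423 to 0.145% in cortex and 0.0575 to 0.156% in medulla.

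The members were also higher under the T cell mask of thymoma than of control thymus. The median member in thymoma T cells exceeded control cortical T cells by 0.48 on the log2(CPM+1) scale, where the median over all probes was -0.15, and control medullary T cells by 0.28, where it was -0.29. All 4 thymoma T cell libraries lay above all control cortical T cell libraries for 52 members, where 4.55% of all probes did so, and above all control medullary ones for 31, where 9.66% did. They lay below all control cortical T cells for 1 member, where 11.1% of all probes did, and below all medullary ones for 3, where 30.1% did. Here low control T cells were a condition of choice and work toward higher values. In B cells the median of thymoma minus control was -0.03, against 0.01 over all probes, and 1 member lay above and 5 below all control B cells, where 2.02% and 3.76% of all probes did so. No epithelial marker could be identified, so the epithelial content of T cell segments was not measured, and its part in these values was not tested.

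By the rule for naming probes, 2 IDs stand for the members with the largest log2 fold changes of thymoma epithelium over thymoma T cells. That comparison picked them, so their fold changes and p values over T cells are given as description. RTS0070065, second by score, had 148, 160, 169 and 109 CPM in thymoma epithelium of mice 1042, 1044, 1082 and 1157. It had 59.6, 66.5, 41.3 and 35.0 CPM in thymoma T cells and 34.2, 34.3, 36.5 and 18.7 CPM in thymoma B cells of the same mice. The epithelial values lay above all T cell and B cell values without overlap. The log2 fold change was 1.58 over T cells (SE 0.10, adjusted p = 2.42e-09, edgeR quasi-likelihood test) and 2.41 over B cells (adjusted p = 2.05e-08). Without the mouse block it was 1.54 over T cells, with an adjusted p of 0.0314.

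In control thymus RTS0070065 had 77.3, 69.1, 57.7 and 83.4 CPM in cortical epithelium of mice 1057, 1059, 1143 and 1172, and 109, 103 and 76.3 CPM in medullary epithelium of mice 1057, 1143 and 1172. Thymoma epithelium was above all cortical values and overlapped the medullary ones, its lowest value being 108.7 CPM and the highest medullary one 109.3 CPM. The log2 fold change was 1.13 over cortical epithelium and 0.88 over medullary epithelium, given without a test because these libraries chose the probe.

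RTS0069797, first by score, had 1721, 800, 1178 and 1046 CPM in thymoma epithelium of mice 1042, 1044, 1082 and 1157. It had 911, 387, 293 and 355 CPM in thymoma T cells and 22.5, 38.3, 24.0 and 29.3 CPM in thymoma B cells. In each mouse epithelium was highest and B cells lowest, but T cells of mouse 1042 lay above epithelium of mouse 1044. The log2 fold change was 1.41 over T cells (SE 0.14, adjusted p = 3.34e-07, edgeR with the mouse as a block) and 5.46 over B cells (SE 0.32, adjusted p = 2.14e-08). Without the block the adjusted p over T cells was 0.233. Thymoma B cells were 4.04 log2 units below thymoma T cells (log2 fold change -4.04, adjusted p = 1.16e-06).

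In control thymus RTS0069797 had 288, 306, 106 and 196 CPM in cortical epithelium of mice 1057, 1059, 1143 and 1172, and 323, 134 and 114 CPM in medullary epithelium of mice 1057, 1143 and 1172. All thymoma epithelia were above all of these. The log2 fold change was 2.52 over cortical epithelium (SE 0.42) and 2.91 over medullary epithelium (SE 0.58), likewise without a test. Control B cells had 48.4, 30.6, 78.4 and 41.2 CPM in mice 1057, 1059, 1143 and 1172, so thymoma B cells were not above them.

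No member met the naming rule for probes lower in thymoma epithelium. RTS0065617, ranked 116, was chosen after its values were seen, as the only member called lower against thymoma B cells, against control cortical and against control medullary epithelium. It had 14.6, 22.2, 18.8 and 13.6 CPM in thymoma epithelium of mice 1042, 1044, 1082 and 1157, 15.5, 23.8, 20.6 and 15.5 CPM in thymoma T cells and 25.4, 28.7, 24.6 and 17.8 CPM in thymoma B cells. Control cortical epithelium had 35.4, 32.9, 9.62 and 27.7 CPM in mice 1057, 1059, 1143 and 1172, the value of mouse 1143 resting on 1 count, and medullary epithelium had 44.9, 22.3 and 40.2 CPM in mice 1057, 1143 and 1172. The log2 fold change was -0.35 against B cells, -0.76 against cortical epithelium and -0.98 against medullary epithelium. These values picked the probe and are given without a test, and high control epithelium, a condition of the rule, works toward lower values in the comparisons with controls. The B cell call was lost without mouse 1042, the cortical call without mouse 1042, 1057, 1059, 1157 or 1172, and the medullary call without mouse 1157 or 1172. Against thymoma T cells its fold change of -0.10 did not pass (adjusted p = 0.30), though epithelium was lower in 4 of 4 mice.

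**Figure D5:**
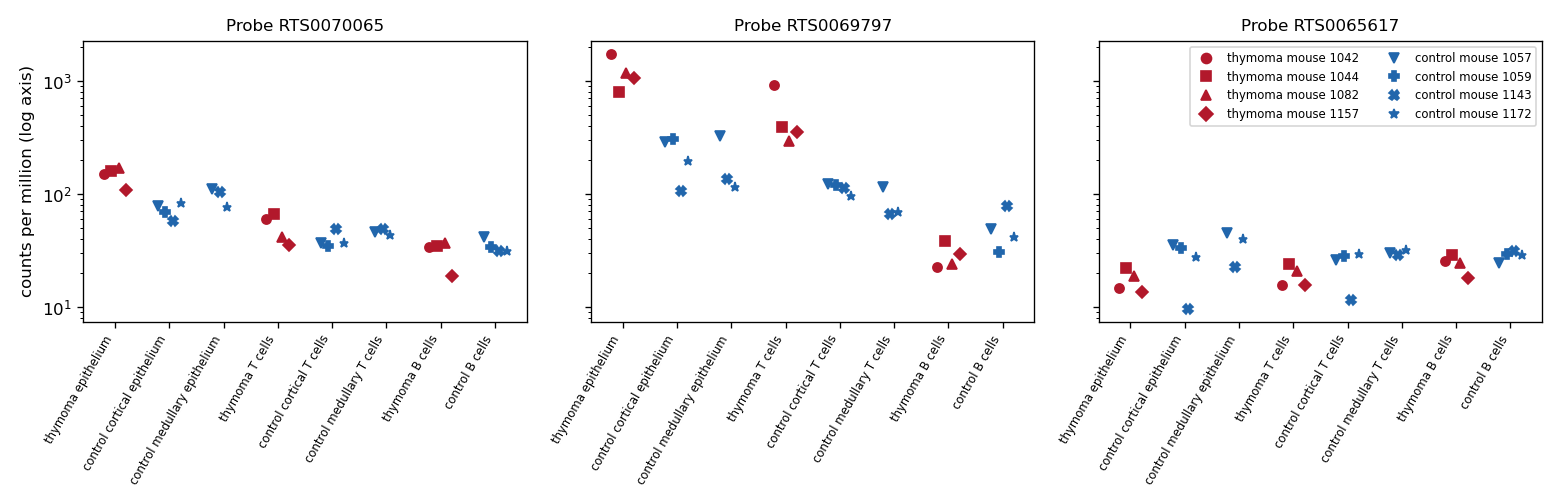
Scaled counts (CPM), on a log axis, of the 3 named probes in every library, 1 point per mouse, for the 3 thymoma and the 5 control classes. RTS0070065 and RTS0069797 are highest in thymoma epithelium, at 109 to 169 and 800 to 1721 CPM, and RTS0065617 is lower there than in most control epithelia.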

How the data were processed

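Deposited values are counts, whole numbers for every probe, in a separate file for each segment; the authors made them using GeoMx_NGS_Pipeline 2.0.0 (DCC format 0.02), per the file headers. In part of the deposited files the count column could not be named, so its unit is recorded as other; these were read alike and hold whole numbers. How reads were aligned to probes: not given in the sources used here. Probes without a listed count were set to 0, and negative control probes could not be told apart, so no background was subtracted. Counting error limits precision through the totals given in the report, and variation between mice limits it as well.

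Counts of 95 segments were summed per mouse and class. Groups were compared in R 4.3.3 with the edgeR 4.0.16 quasi-likelihood test (filterByExpr, TMM, only the groups compared, Benjamini-Hochberg adjustment over all 20175 probes, threshold 0.05), with the mouse as a block within thymoma because both classes come from the same animals. Epithelium and T cell libraries of the same mouse correlated at 0.639 to 0.816 in their deviations from class means; the lowest such correlation over the 3 pairs of classes was -0.012 and the highest with another mouse 0.211. All 150 members were tested in each comparison. SEs were taken from the fold change and F statistic. The fits were tested on simulated data. Single-mouse differences use log2(CPM+1), so they are smaller than fold changes for low probes.

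The members, lists and tests were chosen with earlier results of these data known. Named probes had the 2 largest fold changes over T cells among members called, of the same sign in all 4 mice, and above the median level; the same was asked of members that fell. Alternatives were DESeq2 1.42.0, upper-quartile scaling, 2 filters on low counts, single mice left out, other ways of choosing members, no block, and controls of 1 genotype. Marker and pathway lists were not used, because IDs are not paired with genes.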

Additional observations from a re-analysis of the deposited data

Results flagged for a closer look

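In groups of 4 mice, a value was singled out when its gap to the nearest other value exceeded Dixon's critical share of the whole range, which chance does in about 1 of 20 groups; 28 groups were looked at. The members' share of counts in thymoma B cells was 1.159% in mouse 1042, above the 0.909 to 0.922% of the other 3 thymoma mice. RTS0069797 stood at 910.8 CPM in thymoma T cells of mouse 1042, the mouse with the highest member share under all 3 masks. RTS0070065 was low in thymoma B cells of mouse 1157, at 18.66 CPM, and high in control cortical T cells of mouse 1143, at 49.18 CPM, the mouse with the fewest counts per nucleus.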

How the results depend on the processing

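No median of the 5 comparisons changed sign under any alternative run, while 186 of the recomputed counts and medians stayed close to the reported value and 66 moved. Without the replicate block, 2 members were called higher in thymoma epithelium than in thymoma T cells in place of 135, with the median again 0.66. Against thymoma B cells, 0 in place of 1 were called lower. For comparisons within thymoma, the share of all probes called was counted in the main fits alone. Choosing the members from the unweighted mean over control mice, a list that shares 42 of 150 probes, gave medians of 0.36 over T cells, 0.40 over B cells, -0.039 for B cells over T cells, 0.37 over cortical and 0.079 over medullary epithelium. With it, 97 members were higher than in T cells and 82 than in B cells, and 2 were lower than in B cells. In B cells 6 were higher and 45 lower than in T cells. Against cortical epithelium 36 were higher, and against medullary epithelium 24 were higher and 2 lower. These calls come from the main fits, whose shares over all probes are given above. DESeq2 called 83 higher than in medullary epithelium, where 13.4% of all probes were. It called 0 lower than in cortical epithelium, where 0.481% of all probes were, and 0 lower than in B cells. Keeping probes above the median of mean CPM gave 22 higher than in medullary epithelium, where 5.72% of the probes kept were. It gave 0 lower than in cortical epithelium, where 1.15% were, 0 lower than in B cells and 1 higher in B cells than in T cells. Upper-quartile scaling moved the median of all probes to -0.18 over B cells, 0.12 for B cells over T cells and -0.31 over medullary epithelium. The members' medians were then 1.020 over B cells and 0.59 over medullary epithelium. With this scaling 3 members were lower than in medullary epithelium, where 18.8% of all probes were, and 1 was higher in B cells than in T cells. With Gtf2ifl/fl controls alone, 31 members were higher than in cortical and 4 than in medullary epithelium (median 0.56), the medullary arm being mouse 1057 alone, whose spread was assumed to be that of the thymoma mice. With Gtf2ifl/wt controls alone, 0 were higher and 0 lower than in cortical epithelium (median 1.03), where 0% and 0.00496% of all probes were. Against medullary epithelium 62 were then higher and 1 lower, where 7.77% and 2.44% of all probes were, and the median was 1.04.

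Leaving out single mice, from the fit or from the choice of members, gave 112 to 138 called higher and medians of 0.54 to 0.74 over T cells. Over B cells it gave 98 to 132 higher, 0 to 1 lower and medians of 0.57 to 1.26, the lowest median when mouse 1057 had no part in the choice. B cells over T cells had 0 to 1 higher, 57 to 94 lower and medians of -0.61 to -0.18, again least without mouse 1057 in the choice. For these comparisons within thymoma, the share of all probes called was not counted in the fits without a mouse. Over cortical epithelium there were 7 to 89 higher, 0 to 1 lower and medians of 0.58 to 0.91. Of all probes, 0.203 to 5.91% were then higher and 0.0248 to 3.56% lower. Over medullary epithelium there were 0 to 73 higher, 0 to 2 lower and medians of 0.32 to 1.04. Of all probes, 0.0248 to 12.2% were then higher and 0.124 to 5.82% lower. The cause of these shifts was not tested. Leaving out a mouse also left fewer libraries. Depth limits the values of mouse 1143 most, where 122 of the 150 members had a count in B cells.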
